A study of Mus musculus with 2 samples.

Results

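The cells described here were 231 pallial neurons in which RNA of both *Fezf2* and *Bcl11b* was counted, out of 16213 cells that passed the filter in 2 single-cell libraries. They were chosen by measured values: at least 1 unique molecular identifier (UMI, 1 counted RNA molecule) of *Fezf2*, of *Bcl11b* and of *Neurod6* or *Neurod2*, and no UMI of *Foxp2*, *Hs3st4*, *Prox1*, *Nr4a2*, *Pax6*, *Gad1* or *Gad2*, among barcodes with 1500 to 60000 UMIs and under 10% mitochondrial UMIs. The working name of this gate was layer 5 subcerebral-like, and they are called Fezf2+/Bcl11b+ neurons below because their other markers bore that name out only in part. Both libraries were prepared from the dissociated cerebral cortex of WT mouse embryos at embryonic day 16.5, taken as control animals of the EomesDot line, which the series title describes as Eomes-Cre. The labels give neither the number of embryos behind a library nor whether the WT embryos carried the Cre allele, and no mutant or treated group was analysed here. The libraries are called replicate 1 and replicate 2, so that every spread given below is that between 2 libraries and may be technical.

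*Fezf2* is the zinc finger transcription factor that directs newborn cortical neurons to the corticospinal and other subcerebral fates of layer 5, and *Bcl11b*, known as Ctip2, acts downstream of it in the outgrowth and bundling of their axons. *Ldb2*, a cofactor of LIM domain transcription factors, and *Crym*, a thyroid hormone binding protein, are established markers of the same neurons. Deep-layer corticothalamic neurons, marked by *Foxp2*, *Tle4* and *Tbr1*, also contain RNA of both genes, and *Bcl11b* is a marker of striatal projection neurons, of interneurons and of hippocampal neurons too, for which the excluded genes and several of the marker lists stand.

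In the mouse build GRCm38.p6 (RefSeq), *Fezf2* lies on chromosome 14 (12338992 to 12346803) and *Bcl11b* on chromosome 12 (107910403 to 108004145), both on the minus strand. *Ldb2* lies on chromosome 5 (44435955 to 44799759), *Crym* on chromosome 7 (120186380 to 120201989) and *Zbtb20* on chromosome 16 (42875689 to 43634392). The 250 bases upstream of an annotated start of each of the genes that define the cells are shown 5′ to 3′ on the transcribed strand, from RefSeq. The first window is chr14:12345866-12346115 and the second is chr12:108003415-108003664, and both lie inside the spans just given, which reach further upstream than these starts.
Fezf2: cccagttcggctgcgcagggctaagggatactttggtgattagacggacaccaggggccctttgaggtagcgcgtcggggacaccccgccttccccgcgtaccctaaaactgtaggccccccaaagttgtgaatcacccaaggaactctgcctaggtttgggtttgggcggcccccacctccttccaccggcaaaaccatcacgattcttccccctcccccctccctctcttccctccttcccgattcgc
Bcl11b: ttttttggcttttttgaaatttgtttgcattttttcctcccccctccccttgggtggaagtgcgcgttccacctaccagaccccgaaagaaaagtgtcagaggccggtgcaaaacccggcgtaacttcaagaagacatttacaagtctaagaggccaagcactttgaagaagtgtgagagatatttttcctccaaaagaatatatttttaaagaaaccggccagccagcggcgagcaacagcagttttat
The letters CANNTG, the E-box core that proneural factors such as the Neurod proteins recognise and that reads alike on both strands, occurred 0 times in either window, while 66.22% of 32851 windows of the same length held it, so that no base is set in capitals. The match says only which letters stand in these windows.

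Replicate 1 held 46398156 UMIs in 9049 barcodes and replicate 2 held 64324236 UMIs in 13556 barcodes, of which 5966 and 10247 passed the filter. The Fezf2+/Bcl11b+ neurons numbered 93 in replicate 1 and 138 in replicate 2. That was 1.56% of the cells of replicate 1 (95% exact binomial interval 1.26% to 1.91%) and 1.35% of those of replicate 2 (1.13% to 1.59%), a mean of 1.45% ± 0.150 (SD, n = 2), where the intervals cover counting error only. Each cell carried between 3262 and 27290 UMIs in replicate 1 (median 8306) and between 1814 and 19306 in replicate 2 (median 7369.5), above the library medians of 5706 and 4938. A total of 40 barcodes occurred in both libraries, none of them among these cells, and a doublet caller marked 5 of the 93 and 16 of the 138.

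The exclusions removed most of the cells that carried both genes. Among cells with *Neurod6* or *Neurod2*, 308 in replicate 1 and 426 in replicate 2 had a UMI of *Fezf2* and of *Bcl11b*, and the corticothalamic gene *Foxp2* was present in 150 and 183 of them. *Hs3st4*, a heparan sulfate sulfotransferase of deep-layer neurons, was present in 105 and 134, and *Gad2*, the GABA-synthesising enzyme of inhibitory neurons, in 41 and 64. Most members stood at the threshold for *Fezf2*, since 65 of 93 (69.9%) and 96 of 138 (69.6%) had exactly 1 UMI and the highest cell had 13 and 11. For *Bcl11b*, 26 of 93 (28.0%) and 51 of 138 (37.0%) had exactly 1 UMI, with maxima of 17 and 23. Both genes were at exactly 1 UMI in 20 and 34 cells and at 2 or more in 22 and 25 cells. In the layer 6-like gate, drawn with *Foxp2* and *Hs3st4* present, the level of *Fezf2*, which that gate did not require, was 96.9 and 124 CPM (UMIs of the gene per 1000000 UMIs of the summed cells) against 184 and 190 CPM in the Fezf2+/Bcl11b+ neurons. The level of *Bcl11b* was 514 and 568 CPM in the layer 6-like cells against 407 and 398 CPM. Just outside the rule stood 68 and 108 otherwise eligible cells with *Fezf2* and no *Bcl11b* (Fezf2-only), and 568 and 1024 with *Bcl11b* and no *Fezf2* (Bcl11b-only).

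A single *Bcl11b* UMI separated the neurons poorly from cells with *Alas2*, whereas *Fezf2* was scarce in all other cell types examined. Among cells that met every other part of the rule, 10.4% (replicate 1) and 8.27% (replicate 2) had *Fezf2* and 42.8% and 39.1% had *Bcl11b*, at median depths of 6736.5 and 5322 UMIs. Erythroid cells were taken as cells with at least 1 *Alas2* UMI and without *Neurod6* or *Neurod2*. They had *Fezf2* in 2.0% of 250 and 3.43% of 321 cells but *Bcl11b* in 40.8% and 42.1%, at median depths of 3815 and 3681 UMIs. Cells with *Gad1* or *Gad2* were not removed, and the Fezf2+/Bcl11b+ neurons themselves held 5 and 6 *Alas2* UMIs. This set may therefore hold cells that are not erythroid. With every cell thinned to 1500 UMIs, *Bcl11b* was found in 18.5% and 18.3% of the neurons and in 28.8% and 29.9% of the erythroid cells. The share of neurons with a *Bcl11b* UMI thus lay below that in erythroid cells, and 1 such UMI is not read as expression. Endothelial cells and microglia were taken with at least 2 UMIs of *Cldn5* or of *C1qa*, also without *Neurod6* or *Neurod2*. Endothelial cells had *Bcl11b* in 15.2% of 33 and 27.0% of 111 cells (medians 9161 and 6763 UMIs), and microglia in 20% of 20 and 6.90% of 58 (medians 3424 and 5573.5 UMIs). After thinning these were 12.1% and 10.8% of endothelial cells and 15% and 3.45% of microglia, below the neurons. The share was thus not alike in all other cell types, and its source was not tested. *Fezf2* and *Bcl11b* were found together in 6.02% and 4.64% of cells, where the product of their shares was 4.46% and 3.23%, and after thinning in 0.777% and 0.605% against 0.646% and 0.455%. As the rule uses both genes, these shares are a description, with no interval or test.

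The other markers named for these neurons bore out the working name only in part. *Ldb2* stood at 161 CPM in replicate 1 and 320.4 CPM in replicate 2, in 34.4% and 46.4% of the Fezf2+/Bcl11b+ neurons. *Crym* stood at 58.9 and 69.5 CPM, in 15.1% and 16.7% of them, and *Ldb2* or *Crym* was found in 42 of 93 (45.2%) and 76 of 138 (55.1%). A UMI of *Ldb2* was also found in 57.6% and 41.4% of endothelial cells, in 12.4% and 11.8% of erythroid cells and in 0% and 1.72% of microglia, and one of *Crym* in at most 1.72% of these cell types. Thinned to 1500 UMIs, *Ldb2* was in 15.2% and 19.8% of endothelial and 4.80% and 4.67% of erythroid cells. The thinned share of Fezf2+/Bcl11b+ neurons given below lay near the endothelial and above the erythroid one, and a single *Ldb2* UMI is not read as expression. The levels of *Ldb2* and *Crym* in the Fezf2+/Bcl11b+ neurons were not above those of all the other gated neurons. The layer 6-like gate (cells with *Foxp2* and *Hs3st4*, 122 and 144) held *Ldb2* at 421 and 588 CPM in 66.4% and 74.3% of cells, and *Crym* at 76.4 and 65.3 CPM in 26.2% and 20.8%. In the Bcl11b-only cells, *Ldb2* stood at 221 and 155 CPM, overlapping the Fezf2+/Bcl11b+ neurons, and *Crym* at 8.71 and 15.3 CPM in 3.17% and 4.30% of cells. Thinned to 1500 UMIs, *Ldb2* was found in 15.1% and 20.3% of the Fezf2+/Bcl11b+ neurons against 36.9% and 48.6% of the layer 6-like cells. *Crym* was then found in 4.30% and 7.97% against 9.02% and 9.03% of the layer 6-like and 0.528% and 1.76% of the Bcl11b-only cells.

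**Figure D1:**
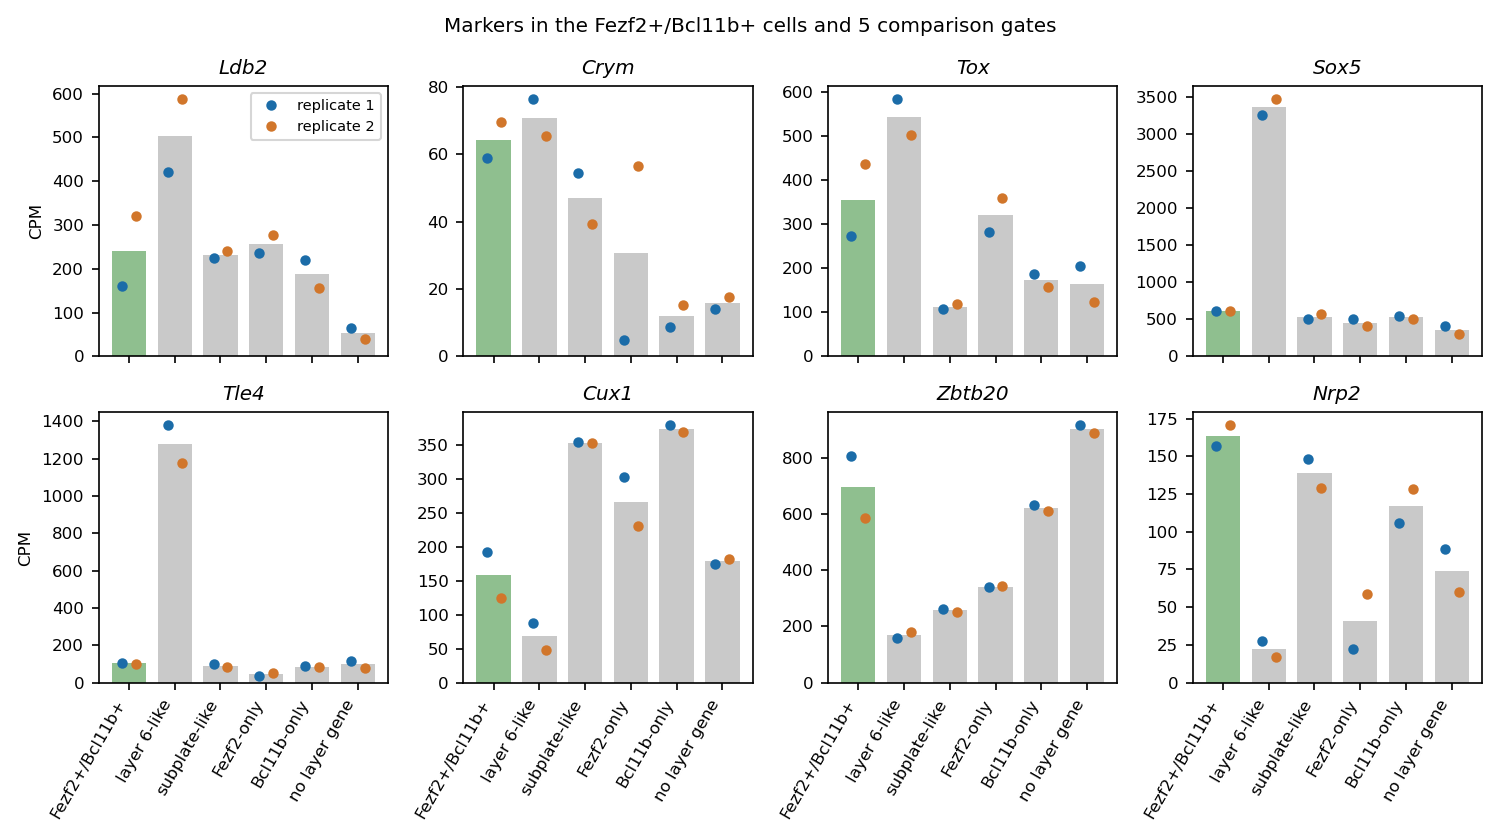
Levels of 8 marker genes in CPM (linear axes from 0) in the Fezf2+/Bcl11b+ neurons (green bar) and in 5 other gates (grey bars). Bars are means of 2 libraries and points are the libraries; *Ldb2* and *Crym* are not highest in the Fezf2+/Bcl11b+ neurons, and *Zbtb20* and *Nrp2* stand well above their layer 6-like and Fezf2-only levels.

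Markers of interneurons, striatal neurons and Cajal-Retzius cells were low, whereas erythroid, radial glia and hippocampal markers were not. *Neurod6* and *Neurod2* were used to choose the cells, but vesicular glutamate transporter 2 (*Slc17a6*) was not, and it stood at 79.0 and 84.8 CPM. The proliferation gene *Mki67* stood at 2.36 and 1.80 CPM. The summed level of 6 interneuron markers was 27.1 and 31.6 CPM, that of 7 striatal markers 13.0 and 8.12 CPM with 4 of the 7 at 0 in each library, and that of 4 Cajal-Retzius markers 8.25 and 6.32 CPM with 3 of the 4 at 0. Intermediate progenitor markers summed to 51.9 and 65.9 CPM and radial glia markers to 477 and 446 CPM. Of the radial glia markers the layer 6-like cells had 296 and 531 CPM, the Fezf2-only cells 297 and 648 CPM and the Bcl11b-only cells 405 and 679 CPM. Of 4 thalamic markers, summing to 323 and 222 CPM, *Lhx2* alone made up 275 and 171 CPM, and *Gbx2* was at 0 in both libraries. The 5 hippocampal markers summed to 843 and 617 CPM, nearly all of it *Zbtb20*, a zinc finger factor known for its role in the hippocampal field, at 806 and 587 CPM. That sum was 185 and 199 CPM in the layer 6-like, 359 and 373 CPM in the Fezf2-only and 656 and 631 CPM in the Bcl11b-only cells. The 4 erythroid markers came to 1465 and 1107 CPM, against 2246 and 1840.1 CPM in the layer 6-like and 502 and 1684 CPM in the Fezf2-only cells. The gate with no layer gene (114 and 295 cells) went against its selection as neurons, with 80364 and 85777 CPM of erythroid and 3044 and 3183 CPM of radial glia markers and only 844 and 927 CPM of 6 pallial excitatory markers (1853 and 1956 CPM in the Fezf2+/Bcl11b+ neurons). It is shown in the plots and entered the fit, and no result is drawn from it.

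*Zbtb20* set these cells apart from the layer 6-like cells, and divided them internally. It was found in 79.6% and 63.0% of the Fezf2+/Bcl11b+ neurons (47.3% and 34.8% at 1500 UMIs), against 11.5% and 13.9% of layer 6-like and 27.9% and 25.9% of Fezf2-only cells at 1500 UMIs. Bcl11b-only cells resembled the Fezf2+/Bcl11b+ neurons, with *Zbtb20* in 45.8% and 50.5% of cells at 1500 UMIs. Of the Fezf2+/Bcl11b+ neurons, 20.4% in replicate 1 and 37.0% in replicate 2 had no *Zbtb20* UMI, 25.8% and 20.3% had 1 or 2, and 53.8% and 42.8% had 3 or more, up to 61 in 1 cell. Counts of 3 or more were found in 7.38% and 8.33% of layer 6-like and in 44.1% and 20.4% of Fezf2-only cells. Erythroid cells carried *Zbtb20* in 52.0% and 55.5%, and endothelial cells in 60.6% and 61.3% (43.2% and 46.7%, and 21.2% and 31.5%, at 1500 UMIs). The thinned erythroid share thus lay near that of the Fezf2+/Bcl11b+ neurons in replicate 1 and above it in replicate 2. The presence of a single UMI is therefore read here as no sign of expression. The counts of 3 or more and the CPM values carry the description instead. Those counts were not thinned, and neither they nor the CPM values were determined for erythroid and endothelial cells. They are therefore not shown to be clear of background.

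**Figure D2:**
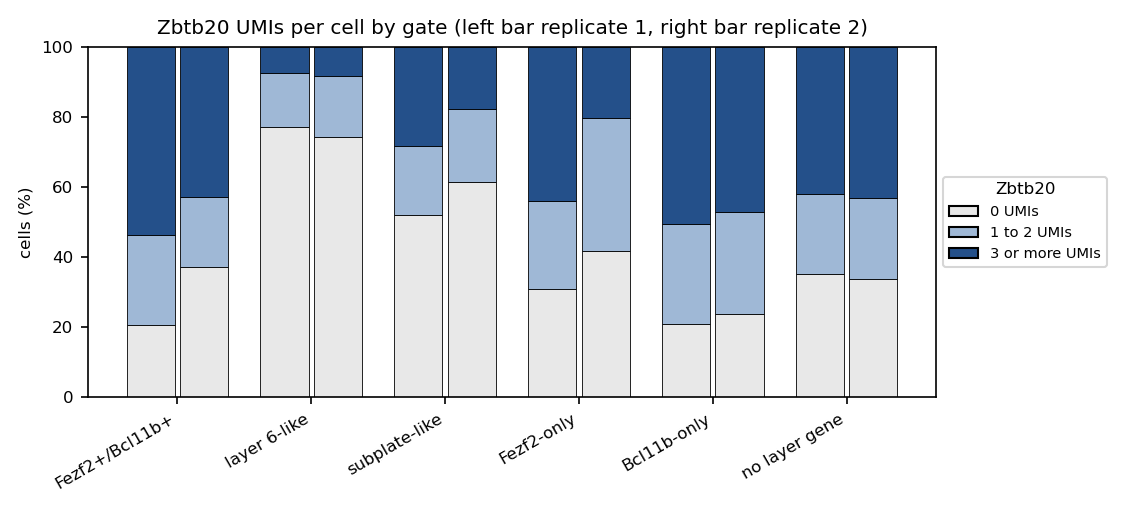
Share of cells (%) with 0, 1 to 2, or 3 or more *Zbtb20* UMIs in each gate, with replicate 1 as the left and replicate 2 as the right bar of a pair. In the Fezf2+/Bcl11b+ neurons 53.8% and 42.8% of cells had 3 or more, a split like that of the Bcl11b-only cells (50.7% and 47.1%) and unlike that of the layer 6-like cells (7.38% and 8.33%).

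Sorted by *Zbtb20*, the Fezf2+/Bcl11b+ neurons differed in *Ldb2* and several other subcerebral genes and, in the opposite direction, in several guidance genes. These groups were formed after the values had been seen, so they are described and not tested. *Ldb2* was found in 17 of the 19 cells without *Zbtb20* in replicate 1 (89.5%) and 40 of 51 in replicate 2 (78.4%), but in 7 of 50 (14%) and 15 of 59 (25.4%) of those with 3 or more UMIs. The median depth was 7541 and 7006 UMIs in the cells without *Zbtb20* and 9188.5 and 8371 UMIs in those with 3 or more. *Tox*, a nuclear HMG-box protein, went the same way, with 15 of 19 and 41 of 51 cells against 13 of 50 and 21 of 59. *Nrp2*, a receptor for class 3 semaphorins, went the opposite way, with 1 of 19 and 5 of 51 cells against 20 of 50 and 34 of 59. *Crym* did not follow either pattern, with 2 of 19 and 11 of 51 cells against 8 of 50 and 10 of 59.

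The levels showed the same division in both libraries. *Ldb2* stood at 383 and 633 CPM in the cells without *Zbtb20* and at 70.7 and 109.5 CPM in those with 3 or more. *Dync1i1*, a subunit of the dynein motor, went from 655 and 574 CPM to 72.7 and 34.6 CPM, and the potassium channel gene *Kcnq5* from 833 and 1182 CPM to 137 and 88.4 CPM. Higher levels without *Zbtb20* were thus shared by a marker, a motor and a channel gene. *Sox5*, a factor that times the production of deep-layer neurons, stood at 1227 and 1065 CPM against 495 and 336 CPM, *Mef2c* at 789 and 1130.1 CPM against 152 and 421 CPM, and *S100a10*, a calcium-binding family member found in layer 5, at 205 and 171 CPM against 26.3 and 57.7 CPM. Lower levels without *Zbtb20* were found for the secreted cues *Slit2* and *Slit3* and for the receptor gene *Nrp2*, while the Slit receptor gene *Robo1* went the opposite way (2482 and 2290 CPM against 1372 and 1376 CPM). *Slit2* stood at 27.8 and 19.9 CPM against 228 and 294 CPM in the cells with 3 or more, *Slit3* at 111 and 59.6 CPM against 569.6 and 659 CPM, and *Nrp2* at 33.3 and 14.9 CPM against 208 and 332 CPM. The netrin receptor gene *Unc5d* (428 and 132 CPM against 1452 and 786 CPM), the adhesion gene *Negr1* (211 and 122 CPM against 861 and 921 CPM) and the nuclear receptor gene *Nr2f2* (94.4 and 39.7 CPM against 311 and 307 CPM) shared that pattern. Of 11314 genes at 10 CPM or more in any of these groups, 24.5% were higher and 30.5% lower without *Zbtb20* in both libraries. Of 13 subcerebral genes at that level, 6 were higher and 3 lower. Those lower were *Pcp4*, a calmodulin regulator (16.7 and 47.2 CPM against 143 and 173 CPM), *Thsd7a* and *Crim1*. Of 20 neuron maturation genes, 16 were higher and 2 lower, and of 37 axon guidance genes 9 were higher and 22 lower, a share of 59.5% lower. The doublet caller marked 2, 2 and 1 cells of the groups with 0, 1 to 2 and 3 or more *Zbtb20* UMIs in replicate 1, and 1, 4 and 11 in replicate 2; the part of doublets in the division was not tested.

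**Figure D3:**
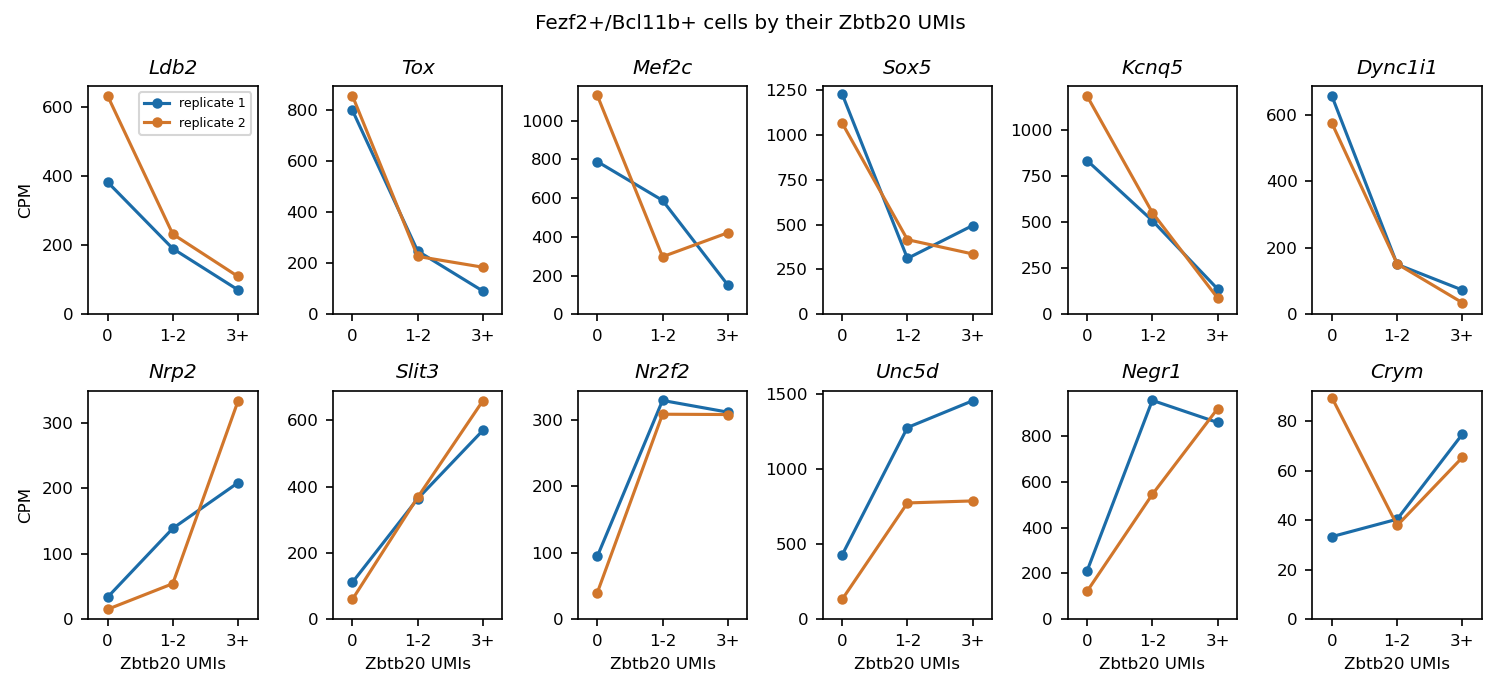
Levels of 12 genes (CPM, linear axes from 0) in Fezf2+/Bcl11b+ neurons with 0, 1 to 2, or 3 or more *Zbtb20* UMIs, 1 line per library. *Ldb2*, *Tox*, *Kcnq5* and *Dync1i1* are highest without *Zbtb20*, *Nrp2*, *Slit3*, *Nr2f2*, *Unc5d* and *Negr1* are lowest there, and *Crym* has no shared direction.

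To ask how the Fezf2+/Bcl11b+ neurons differed from other neurons in genes that the rule did not use, UMIs were summed per gate and library and compared with the quasi-likelihood test of edgeR over all 14 sums of 7 gates, with the library as a block. A gene was called at an adjusted p below 0.05, and log2 fold changes are given ± SE. The comparisons share the sums of the Fezf2+/Bcl11b+ neurons and are not independent of each other, and genes that accompany a gate gene in the same cells were bound to follow it. Summed cells are like bulk samples in that fewer cells of a kind and less RNA per cell cannot be told apart.

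Against the layer 6-like cells, the Fezf2+/Bcl11b+ neurons had far less of the corticothalamic genes. They had more of most callosal and upper-layer genes at the gate's threshold of 1 UMI but not at 2 UMIs of both genes. Of the subcerebral genes, 1 was called higher and 3 lower. Of 13662 genes tested, 957 (7.0%) were higher and 975 (7.14%) lower, together 14.1%, and the median over all genes was -0.03. All 11 corticothalamic genes were lower (median -2.55), where the gates had been drawn on opposite values of *Foxp2* and *Hs3st4*. *Tle4*, a corepressor of deep-layer neurons, stood at 106 and 102 CPM in the Fezf2+/Bcl11b+ neurons and at 1379 and 1175 CPM in the layer 6-like cells (-3.60 ± 0.12, edgeR adjusted p = 3.33e-21). *Sox5* was at 613 and 615 CPM against 3268 and 3479.9 CPM (-2.45 ± 0.11, edgeR adjusted p = 8.05e-14). The neurotensin receptor gene *Ntsr1*, known for its corticothalamic expression, was at 3.54 and 6.32 CPM against 59.3 and 56.9 CPM (-3.50 ± 0.38), and *Wnt7b* at 22.4 and 21.7 CPM against 136 and 125 CPM (-2.55 ± 0.22). The layer 6 determinant *Tbr1* differed less, at 62.5 and 86.6 CPM against 188 and 177 CPM (-1.25 ± 0.18).

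Of 16 callosal and upper-layer genes tested, 12 were higher and 2 lower (median 1.33). That count depended on the gate. With only cells of at least 2 UMIs of *Fezf2* and of *Bcl11b* on the Fezf2+/Bcl11b+ side, 3 callosal and upper-layer genes instead of 12 were called higher (median 0.22), where 4.30% of all genes tested were called higher and 4.61% lower. *Cux1*, *Cux2* and *Plxna4* were then not called, nor was *Efnb2*, and *Unc5d*, *Ptn* and *Cdh12* turned direction. This setting held 22 and 25 Fezf2+/Bcl11b+ neurons instead of 93 and 138, and the part of the cell number in these changes was not tested. *Lhx2*, a LIM homeobox factor, stood at 275 and 171 CPM against 47.9 and 34.8 CPM (2.42 ± 0.19, edgeR adjusted p = 1.09e-10), and *Lmo4*, a LIM-only cofactor, at 351 and 366 CPM against 73.0 and 113 CPM (1.96 ± 0.13). The semaphorin coreceptor gene *Plxna4* was at 773 and 664 CPM against 209.8 and 133 CPM (2.09 ± 0.16). The homeobox genes *Cux1* and *Cux2* were also higher, by 1.22 ± 0.20 and 1.81 ± 0.26. The 2 lower genes were *Mef2c*, a transcription factor of maturing neurons (376 and 658 CPM against 1431 and 1499.7 CPM, -1.51 ± 0.16), and the layer 4 receptor gene *Rorb* (90.7 and 114 CPM against 404 and 409 CPM, -1.96 ± 0.19). Of 15 subcerebral genes tested, 1 was higher and 3 were lower (median -0.39). The higher gene was *Crim1*, a transmembrane protein of corticospinal neurons (0.78 ± 0.21, edgeR adjusted p = 0.013, not called with DESeq2, adjusted p = 0.064), and the cadherin gene *Cdh13* was lower (321 and 358 CPM against 1014 and 937 CPM, -1.49 ± 0.17). *Ldb2* differed by -1.03 ± 0.35 (edgeR adjusted p = 0.125) and *Crym* by -0.14 ± 0.52 (edgeR adjusted p = 0.919), neither of them past the threshold, while DESeq2 called *Ldb2* lower (-1.08, DESeq2 adjusted p = 0.00321).

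Outside the layer lists, the genes with large differences included *Slit3*, *Slit2*, *Nrp2* and *Nr2f2* on the higher side and *Necab1*, *Prickle1* and *Grik3* on the lower side. Among 38 axon guidance genes, 13 were higher and 7 lower. *Slit3*, a secreted ligand of Robo receptors, stood at 430.2 and 393 CPM against 31.9 and 12.6 CPM (4.24 ± 0.43, edgeR adjusted p = 0.000569), *Slit2* at 169 and 162 CPM against 23.9 and 14.8 CPM (3.12 ± 0.45), and *Nrp2* at 157 and 171 CPM against 27.4 and 16.9 CPM (2.91 ± 0.38). *Nr2f2* (COUP-TFII) was at 269 and 210.3 CPM against 18.2 and 6.32 CPM (4.31 ± 0.24), while the ephrin receptor gene *Ephb1* was lower (107 and 145 CPM against 813 and 705 CPM, -2.54 ± 0.18). *Necab1*, a neuronal calcium-binding protein, was at 0 and 0.902 CPM against 182 CPM in both layer 6-like sums (-8.32 ± 0.48), and the planar polarity gene *Prickle1* at 9.43 and 9.93 CPM against 315 and 309 CPM (-4.98 ± 0.23). Of 20 glutamate receptor genes, 3 were higher and 6 lower. The kainate receptor gene *Grik3* (8.25 and 11.7 CPM against 307 and 251 CPM, -4.73 ± 0.24) and the metabotropic receptor gene *Grm3* (-3.74 ± 0.22) were lower, whereas the NMDA receptor gene *Grin2a* was at 22.4 and 37.0 CPM against 0 in both layer 6-like sums, at least 18.7-fold higher when the latter are set at 3 UMIs over the gate.

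Cell adhesion genes (37 tested) were higher in 4 cases and lower in 14, and excitability genes (28 tested) in 5 and 10. Among the former, *Cdh6* was lower (-4.73 ± 0.33) and *Cdh12* higher (2.02 ± 0.20), and among the latter the calcium channel genes *Cacna1e* was lower (-2.10 ± 0.16) and *Cacna2d1* higher (1.16 ± 0.10). Of 19 neuron maturation genes, 2 were higher and 8 lower, with the splicing factor gene *Rbfox1* at 3491 and 3081 CPM against 6119.6 and 5468 CPM (-0.81 ± 0.08). Of 11 genes of newborn and migrating neurons, 3 were higher and 1 lower, with *Neurod1* at 86.0 and 65.9 CPM against 9.12 and 10.5 CPM (2.93 ± 0.27). *Zbtb20* was higher by 2.03 ± 0.13, and the striatal gene *Drd1* was at 0 in both sums of the Fezf2+/Bcl11b+ neurons against 11.4 and 11.6 CPM, at least 7.5-fold lower with 3 UMIs set over the gate. The call of *Drd1* was lost with DESeq2 (adjusted p = 0.0632) and with at least 2 UMIs of *Fezf2* and of *Bcl11b* (edgeR adjusted p = 0.122). *Drd1* held 10 and 11 UMIs in the layer 6-like sums and did not pass the count filter with depth-matched cells. It thus entered the test through the gate where it was high, and its call is not used as a result. The layer 6-like cells had a higher median mitochondrial share (6.47% and 5.38% against 4.61% and 4.64%), and the part of this in the differences was not tested. With at least 2 UMIs of *Fezf2* and of *Bcl11b*, guidance genes were higher in 7 cases and lower in 7, and neuron maturation genes in 1 and 2. Newborn and migrating genes were then higher in 1 and lower in 1, adhesion genes in 3 and 13 and excitability genes in 3 and 8. With at most 1 *Zbtb20* UMI, guidance genes were higher in 8 and lower in 8, and maturation genes in 1 and 3. Newborn and migrating genes were there higher in 1 and lower in 0, adhesion genes in 3 and 10 and excitability genes in 2 and 6.

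**Figure D4:**
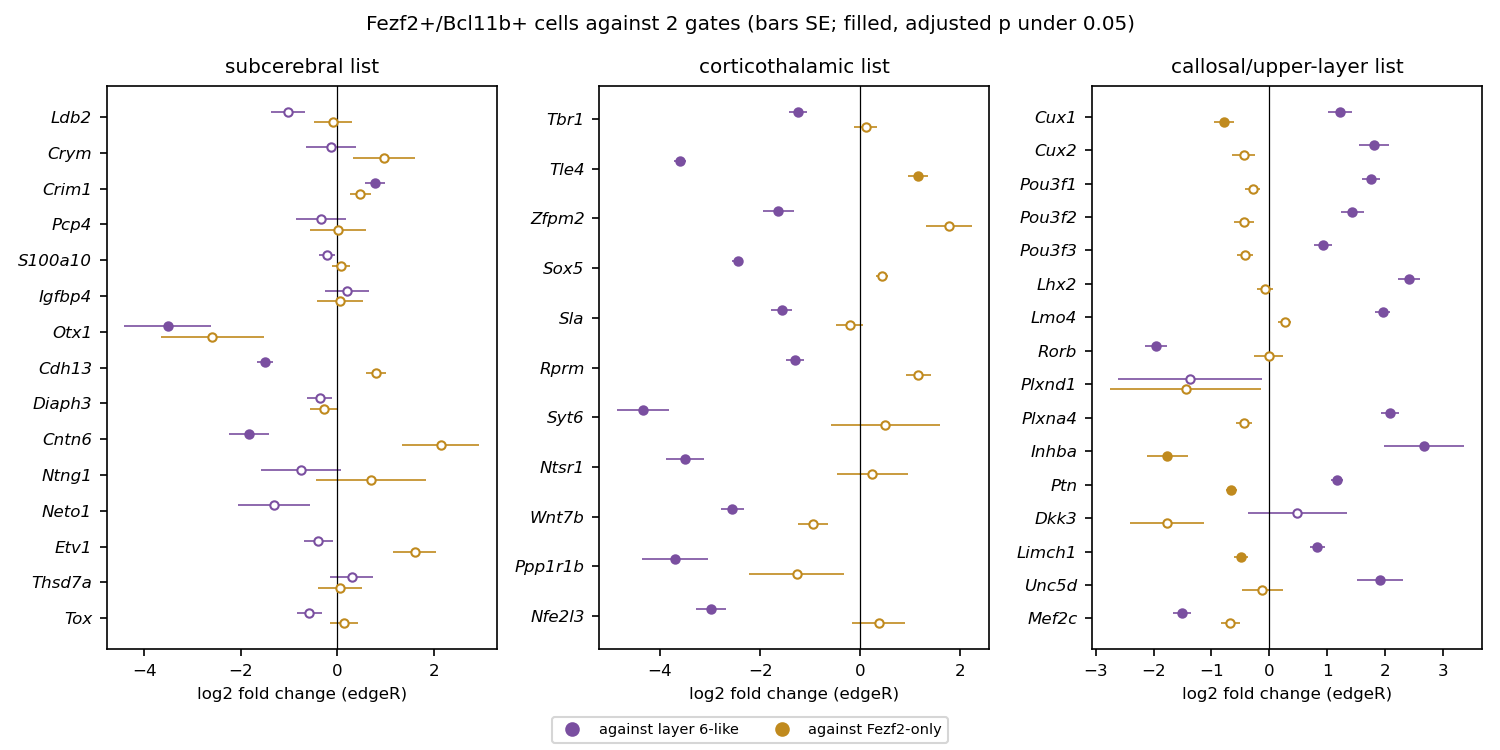
Log2 fold changes (edgeR, bars are SE) of the genes of 3 identity lists in the Fezf2+/Bcl11b+ neurons against layer 6-like and Fezf2-only cells, where filled points passed an adjusted p of 0.05 and positive values are higher in the Fezf2+/Bcl11b+ neurons. All 11 corticothalamic genes lie below 0 against layer 6-like cells, and 12 of 16 callosal and upper-layer genes are called higher there (3 with at least 2 UMIs of both rule genes); *Neto1*, at 0 in both Fezf2-only sums, has no point there.

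Because *Zbtb20* was also higher here, the comparisons were repeated with only the cells of every gate that had at most 1 *Zbtb20* UMI, 34 and 67 of the Fezf2+/Bcl11b+ neurons. This choice was made after its values had been seen. Against the layer 6-like cells, 10 of 11 corticothalamic genes were then lower, and of 16 callosal and upper-layer genes 10 were higher and 2 lower, where 2.90% of the 12113 genes tested in that setting were higher and 3.91% lower. *Tle4* (-4.05), *Slit3* (3.56) and *Nr2f2* (4.90) kept their calls, whereas *Nrp2* (3.20, edgeR adjusted p = 0.116) and *Unc5d* (2.37, edgeR adjusted p = 0.0941) did not. Of 15 subcerebral genes, 1 was higher and 1 lower (median 0.14). The higher gene was *Thsd7a* (1.56, edgeR adjusted p = 0.022), not called before, while *Crim1* differed by 0.75, close to the 0.78 above, without a call (edgeR adjusted p = 0.089), and *Ldb2* differed by -0.25 (edgeR adjusted p = 0.671).

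Few genes separated the Fezf2+/Bcl11b+ neurons from the Fezf2-only cells. Of the genes tested, 62 (0.454%) were higher and 36 (0.264%) lower, together 0.717%. Of 15 subcerebral genes, 0 were called with edgeR (median 0.14), although 6 had an unadjusted p under 0.05, 1 (*Cdh13*) was called higher by DESeq2, 1 (*Etv1*) with depth-matched cells, 2 with at least 2 UMIs of *Fezf2* and of *Bcl11b* and 2 with at most 1 *Zbtb20* UMI per cell. *Ldb2* stood at 236 and 278 CPM in the Fezf2-only cells, within the range of the Fezf2+/Bcl11b+ neurons (-0.09 ± 0.39), and *Crym* at 4.78 and 56.4 CPM (0.97 ± 0.64). Of 11 corticothalamic genes, 1 was higher and 0 were lower (median 0.37), with 3 called higher by DESeq2 and 2 with depth-matched cells. The higher gene was *Tle4* (106 and 102 CPM against 36.7 and 53.8 CPM, 1.15 ± 0.20, edgeR adjusted p = 0.000912), while *Wnt7b* differed by -0.95 (edgeR adjusted p = 0.21) and *Sla* by -0.21 without a call. Of 16 callosal and upper-layer genes, 0 were higher and 4 were lower (median -0.44), which became 8 lower with at least 2 UMIs of *Fezf2* and of *Bcl11b* (median -1.31) and 2 with at most 1 *Zbtb20* UMI. Among the 4 were *Cux1* (192 and 125 CPM against 303 and 231 CPM, -0.78 ± 0.17, edgeR adjusted p = 0.0319, and 0.0513 with depth-matched cells) and *Ptn* (-0.66 ± 0.10). Guidance genes (38) were higher in 7 cases and lower in 1, and in 6 and 3 with at least 2 UMIs of both genes. *Slit3* stood at 430.2 and 393 CPM against 55.8 and 46.1 CPM (3.004 ± 0.39, edgeR adjusted p = 0.0243), and the ephrin ligand gene *Efna5* at 71.9 and 85.7 CPM against 14.4 and 30.7 CPM (1.75 ± 0.28), while *Robo2*, a receptor of Slit proteins, was lower (-0.54 ± 0.10). *Nr2f2* (1.31 ± 0.16) and *Zbtb20* (806 and 587 CPM against 339.7 and 345 CPM, 0.998 ± 0.12) were higher, as were the potassium channel genes *Kcnq3* (0.86 ± 0.10) and *Kcnh7* (0.54 ± 0.10). Adhesion genes were lower in 3 cases and higher in 0 (7 and 2 with at least 2 UMIs of both genes), with *Tenm3*, a teneurin, at 217 and 254 CPM against 419 and 428 CPM (-0.86 ± 0.12). With at most 1 *Zbtb20* UMI, the 2 subcerebral genes called higher were *Crym* (2.18, edgeR adjusted p = 0.0216) and *Cdh13* (1.25, edgeR adjusted p = 3.15e-06), 3 corticothalamic genes were higher, and *Slit3* (2.34), *Efna5* (1.47) and *Nr2f2* (2.60) kept their calls, where 0.372% of all genes tested in that setting were higher and 0.165% lower. Of the genes chosen by the naming rule, 19 lost their call there without a sign change, with 34 and 67 instead of 93 and 138 Fezf2+/Bcl11b+ neurons. *Zbtb20*, which this setting limits, also lost its call and changed sign (-0.35, edgeR adjusted p = 0.903). Among the 19, *Ptn* differed by -0.49 (edgeR adjusted p = 0.198), *Robo2* by -0.58 (0.0552), *Tenm3* by -0.49 (0.408), *Kcnq3* by 0.56 (0.886) and *Kcnh7* by 0.51 (0.231). Without the library block 57 genes were called, with cells under 5% mitochondrial UMIs 9, with at least 2 UMIs of both genes 172 (0.527% of genes tested higher and 0.732% lower), and without a filter on low counts 208.

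The Bcl11b-only and the subplate-like cells (*Nr4a2* present, 102 and 158 cells) are set beside the Fezf2+/Bcl11b+ neurons without a test, for genes chosen after their values were seen. *Nrp2* stood at 157 and 171 CPM in the Fezf2+/Bcl11b+ neurons, 106 and 128 CPM in the Bcl11b-only and 148 and 129 CPM in the subplate-like cells. *Slit3* stood at 430.2 and 393 CPM, 116 and 152 CPM, and 329 and 263 CPM, and *Nr2f2* at 269 and 210.3 CPM, 155 and 163 CPM, and 76.4 and 79.9 CPM in the same order. For these 3 genes both sums of the Fezf2+/Bcl11b+ neurons lay above those of the Bcl11b-only and subplate-like cells, narrowly for *Nrp2* (157 against 148 CPM). How often this holds over all genes was not counted, so nothing is concluded from it. *Zfpm2*, a GATA cofactor on the corticothalamic list, stood at 237 and 256 CPM against 85.6 and 81.4 CPM in the Bcl11b-only and 55.6 and 79.9 CPM in the subplate-like cells. The *Tle4* levels lay closer together, at 106 and 102 CPM, 90.2 and 82.5 CPM, and 99.3 and 82.3 CPM. Of these 3 gates, the upper-layer gene *Cux1* was lowest in the Fezf2+/Bcl11b+ neurons, at 192 and 125 CPM, against 379 and 369 CPM and 355 and 353 CPM.

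The study dealt with signalling between migrating interneurons and cortical cells and with DNA methylation in interneurons, and several genes of these processes were present in the Fezf2+/Bcl11b+ neurons. *Efnb2*, a transmembrane ephrin ligand, stood at 184 and 183 CPM, higher than in the layer 6-like cells (107 and 101 CPM, 0.83 ± 0.13, edgeR adjusted p = 1.24e-05), and differed from the Fezf2-only cells by -0.04 without a call. The ephrin receptor gene *Epha4* stood at 207 and 135 CPM and was called in 0 of the 2 comparisons with edgeR, with unadjusted p of 0.196 and 0.141. *Efna5* was lower than in the layer 6-like cells (71.9 and 85.7 CPM against 176 and 206 CPM, -1.26 ± 0.16) and higher than in the Fezf2-only cells, as given above. The presynaptic adhesion gene *Nrxn3* was at 28.3 and 43.3 CPM against 288 and 156 CPM in layer 6-like cells (-2.61 ± 0.64, edgeR adjusted p = 0.0438), a call lost in 5 alternatives. It differed by -2.44 without marked doublets (edgeR adjusted p = 0.0996), -2.61 without a filter on low counts (0.0748), -2.77 under 5% mitochondrial UMIs (0.0957), -1.62 with at least 2 UMIs of both genes (0.332) and -2.75 with at most 1 *Zbtb20* UMI (0.346). Its partner gene *Nlgn1* was at 1719 and 2031 CPM against 2885 and 2350.2 CPM (-0.48 ± 0.17, edgeR adjusted p = 0.117). The DNA methyltransferase gene *Dnmt1* stood at 43.6 and 56.0 CPM, against 39.9 and 47.4 CPM in the layer 6-like and 54.2 and 55.1 CPM in the Fezf2-only cells (0.21 ± 0.22 and -0.13 ± 0.22, neither called).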

How the data were processed

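The 2 libraries were single-index droplet 3′ gene expression libraries. The deposited values are raw UMI counts per gene and barcode (32285 genes), which the authors made with Cell Ranger, version 7.0.0 in the submitters' processing notes and 7.1.0 in the file headers, on the mouse build mm10; the annotation and the handling of introns are not given in the sources used here. Cells were kept at 1500 to 60000 UMIs and under 10% mitochondrial UMIs. Doublets were marked with Scrublet in scanpy 1.11.5 (Python 3.11.15) at an expected 0.8% per 1000 barcodes, which marked 432 and 1111 cells, and were removed only as an alternative. The members, gates and gene lists were chosen with earlier results of these data known.

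UMIs were summed for 7 gates per library, of which 1 entered the fit only and is not reported here. Genes that reached 10 counts in at least 2 sums entered a two-sided quasi-likelihood test of edgeR (version 4.0.16, in R 4.3.3) with TMM scaling and the library as a block, p-values were adjusted by Benjamini-Hochberg over all of them, and the SE was taken from the F statistic. Gates were cut from the same libraries, so the block pairs sums of the same cells' preparation. The 12 gate genes were not tested. Named genes were the called members of the 3 identity lists at 30 CPM or more and members named for not being called, the 3 largest folds per direction in the other lists, the 10 largest per direction over all genes (50 CPM or more, same direction in both libraries, also called with depth-matched cells, without mitochondrial, ribosomal, globin or sex-linked genes), and 6 genes of the signalling and DNA methylation that the study addressed. Genes of the groups by *Zbtb20* were chosen after their values were seen. The test recovered simulated fold changes before use. The simulated sums had 1 fixed dispersion and no library effect, so the recovery does not show how the test does at the real spread. DESeq2 1.42.0, RLE factors, no filter, no block, only the compared gates, depth matching, thinning to 1500 UMIs, doublet removal, stricter gates and, added after the data were seen, at most 1 *Zbtb20* UMI were alternatives. Depth matching left the Fezf2+/Bcl11b+ neurons deeper than the layer 6-like cells (median 8306 against 7396 UMIs in replicate 1 and 7369.5 against 5711.5 in replicate 2). Sequences came from RefSeq (GRCm38.p6).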

Additional observations from a re-analysis of the deposited data

How the results depend on the processing

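The number of called genes depended on the settings. Against the layer 6-like cells it was 1932 and became 1250 with DESeq2, 725 with cells thinned to 1500 UMIs, 1217 with at least 2 UMIs of *Fezf2* and of *Bcl11b*, 822 with cells under 5% mitochondrial UMIs and 825 with at most 1 *Zbtb20* UMI. Against the Fezf2-only cells it was 98 and became 208 without a filter on low counts, 57 without the library block, 32 with thinned cells, 172 with at least 2 UMIs of both genes, 9 under 5% mitochondrial UMIs and 65 with at most 1 *Zbtb20* UMI. Without the replicate block, which pairs the sums cut from 1 library, 1589 and 57 genes were called in the 2 comparisons. The cause of these changes was not tested. The share of cells (mean 1.45%) was 0.325% with gates drawn on thinned cells, 0.306% with at least 2 UMIs of both genes, 1.87% under 5% mitochondrial UMIs, 1.77% among cells of at least 3000 UMIs, and 1.35% to 1.56% with 1 library left out. The co-detection ratio (mean 1.39) was 1.27 after thinning and 1.35 to 1.44 with 1 library left out. Of 2267 alternative values for named genes, 1962 kept their call state or stayed within the spread between the libraries. Without a sign change 191 lost the call and 48 gained it, and 59 moved beyond that spread with 1 library left out. Leaving out 1 of 2 libraries gives the value of the other, which lies within their spread almost by construction and is no check. The remaining 7 changed sign with a call on at least 1 side. With at least 2 UMIs of both genes these were, against the layer 6-like cells, *S100a10* (0.67), *Ptn* (-0.32), *Unc5d* (-0.093), *Cdh12* (-0.29) and *Hs6st3* (-0.21). With at most 1 *Zbtb20* UMI, *Zbtb20* itself differed by -0.35 from the Fezf2-only cells, as this choice uses that gene, and thinned cells gave *Btbd11* 0.19 against the Fezf2-only cells. Genes called in neither fit were counted as kept even where their sign changed. *Tox* differed by -0.58 from the layer 6-like cells and by 0.24 with at most 1 *Zbtb20* UMI. The median of the subcerebral genes was -0.39 and 0.14 in the same 2 fits. The cause of the other sign changes was not tested. Depth limits what a cell at 0 UMIs means, since most members carried a single *Fezf2* UMI.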
